A study of Mus musculus with 89 samples.

Results

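The collagen chains other than the major fibrillar trio Col1a1, Col1a2 and Col3a1 were described across neutrophil segments of mouse squamous cell carcinoma. Members were all targets of the deposited panel named Col, digits, a, digits, with the trio left out, which gave 41 of 19962 targets. The rule used names only, but it was set with earlier results of these data known. The series asked how neutrophils in separate parts of spontaneous squamous tumours respond to immunotherapy. Tags of a whole-transcriptome panel were released by ultraviolet light from stained areas of frozen sections (GeoMx digital spatial profiling) and counted by sequencing. Each region is called a segment.

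There were 89 segments on 3 slides in 7 classes of the deposited annotation. The naive slide, annotated as pre-treatment, held 15 stroma segments, 13 segments at the interface with the tumour and 14 within the tumour, all on collection plate G. The acute slide, annotated as post-treatment, held 9 stroma segments (5 on plate H, the other 4 on plate G) and 2 at the interface (plate H). The relapse slide, also annotated as post-treatment, held 14 stroma and 22 interface segments, all on plate H. The slide name of the relapse classes is "treated", a word that the scan name gives to the acute slide, and the scans are named UP HRass for the naive and DMBA Relapse for the relapse slide. The labels name no agent, strain, age or animal. Stage and slide cannot be told apart, and segments share animals, tumours and slides, so every p-value over segments here is too small.

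All 89 segments carry the label neutrophil. S100a8 and S100a9, abundant neutrophil alarmins, were above the limit of quantitation in 49.4% and 42.7% of segments. Ly6g, a granulocyte surface marker, was above it in 6.74%, and Ltf, a granule protein, in 0% of segments. The smallest count in the matrix is 1, and counts above this floor ran from 574 to 208675 over segments, around a median of 7216. The 41 chains together took 4084 of 1803215 such counts, or 0.226%, against 0.551% for the left-out trio. In 28 segments no chain exceeded the limit of quantitation.

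Collagens are triple helices of chains, most of them secreted and then assembled outside the cell. Type IV chains form the sheet-like network of basement membranes, and types XV and XVIII sit in the basement membrane zone. Type XVII anchors stratified epithelium to that membrane, and type VII anchors the membrane to the matrix beneath. Type VI forms beaded microfilaments around the membrane, types V and XI set the diameter of fibrils, and the FACIT collagens such as type XII decorate fibril surfaces. In squamous carcinoma, fibroblasts, vessel cells and keratinocytes are the usual sources of these chains. Neutrophils are not known as a main source.

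For the chains on which the results turn, the bases just upstream of the annotated gene start are shown, so that the members of one assembly (type VI) can be set beside a minor fibrillar chain and an epithelial anchoring chain. The sequences are RefSeq promoter windows in GRCm38.p6 (mm10), 5′ to 3′ on the strand of the gene, cut to end at the last base before the gene. Capitals mark the GC box, with the letters GGGCGG, the CCAAT box, the motif TATAAA and the AP-1 site, with the letters TGANTCA, each searched on both strands and no match printed here overlaps another. Of the 41 members, 41 matched a RefSeq gene and 33 a promoter entry.
Col6a1, chr10:76726045-76726294, minus strand: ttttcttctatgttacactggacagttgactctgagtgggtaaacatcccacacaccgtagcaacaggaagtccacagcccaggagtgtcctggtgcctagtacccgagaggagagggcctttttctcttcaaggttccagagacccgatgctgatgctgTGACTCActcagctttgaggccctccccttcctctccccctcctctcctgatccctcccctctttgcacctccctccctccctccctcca
Col6a2, chr10:76623631-76623880, minus strand: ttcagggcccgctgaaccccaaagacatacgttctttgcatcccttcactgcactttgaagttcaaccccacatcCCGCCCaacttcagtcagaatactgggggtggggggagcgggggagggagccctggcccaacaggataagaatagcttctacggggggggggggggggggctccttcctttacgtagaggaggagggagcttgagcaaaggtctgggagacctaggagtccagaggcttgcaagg
Col6a3, chr1:90844002-90844221, minus strand: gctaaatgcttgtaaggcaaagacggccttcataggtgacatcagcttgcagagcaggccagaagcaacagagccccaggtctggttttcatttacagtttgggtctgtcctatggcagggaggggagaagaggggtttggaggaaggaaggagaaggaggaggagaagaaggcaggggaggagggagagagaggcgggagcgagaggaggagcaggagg
Col5a1, chr2:27886175-27886380, plus strand: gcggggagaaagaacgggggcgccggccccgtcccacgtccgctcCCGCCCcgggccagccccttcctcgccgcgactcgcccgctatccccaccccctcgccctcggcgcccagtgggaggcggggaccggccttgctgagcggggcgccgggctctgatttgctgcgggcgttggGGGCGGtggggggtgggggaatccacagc
Col17a1, chr19:47692043-47692292, minus strand: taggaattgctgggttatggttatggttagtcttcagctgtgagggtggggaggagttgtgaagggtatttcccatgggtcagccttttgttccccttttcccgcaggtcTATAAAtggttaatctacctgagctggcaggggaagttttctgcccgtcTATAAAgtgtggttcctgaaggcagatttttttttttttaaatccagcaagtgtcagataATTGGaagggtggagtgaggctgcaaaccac

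The Col6a1 window had 1 AP-1 site, at position -90 from the gene start, a motif found in 6.75% of 32851 mouse promoter windows of 250 bases. The Col6a2 window had 1 GC box and the shorter Col5a1 window 2, against 32.7% of windows with a GC box. The Col17a1 window had 2 TATAAA motifs (12.4% of windows) and 1 CCAAT box (33.8%). No searched motif occurred in the Col6a3 window. The GC content was 77.7% in the Col5a1 window, 46% in the Col17a1 window and between 56% and 59.2% in the type VI windows, with a median of 52.4% over all windows. A match is a description of these letters only. Col4a1 and Col4a2 are neighbours on chromosome 8, and their annotated spans overlap by 85 bases.

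Most chains were near the panel's background in these segments. A target counted as quantified in a segment when its count passed both 2 and a limit from that segment's negative probes, their geometric mean multiplied by their squared geometric SD. Of the 41 chains, 12 exceeded it in at least 10% of segments and were tested. They were Col6a2 (37.1% of segments), Col12a1 (29.2%), Col6a1 (23.6%), Col5a2 (22.5%), Col4a2 (20.2%), Col6a3 (20.2%), Col5a1 (18%), Col4a1 (16.9%), Col5a3 (16.9%), Col15a1 (14.6%), Col18a1 (11.2%) and Col11a2 (10.1%). The other 29 chains exceeded it in 0% to 8.99% of segments. Of the whole panel, 25.5% of targets passed the same filter.

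Levels per class are given as a pooled ratio, the share of the class's counts above the floor that a target took, divided by the share of the average panel target. A ratio of 1 is therefore the average target, and the ratio follows 1 target across classes, since probes of different targets are not calibrated against each other. Its 95% interval (exact binomial, Clopper-Pearson) covers counting error only. Over all segments the 12 tested chains had ratios from 0.852 (Col11a2) to 3.10 (Col6a2), with a median of 2.30, against 1.22 for all 5087 tested targets. The 29 untested chains had ratios from 0.321 (Col4a4) to 1.03 (Col9a2), with a median of 0.642, against 0.675 for the 14875 untested targets of the panel. The untested chains were about as high as other targets that did not pass the filter.

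**Figure D1:**
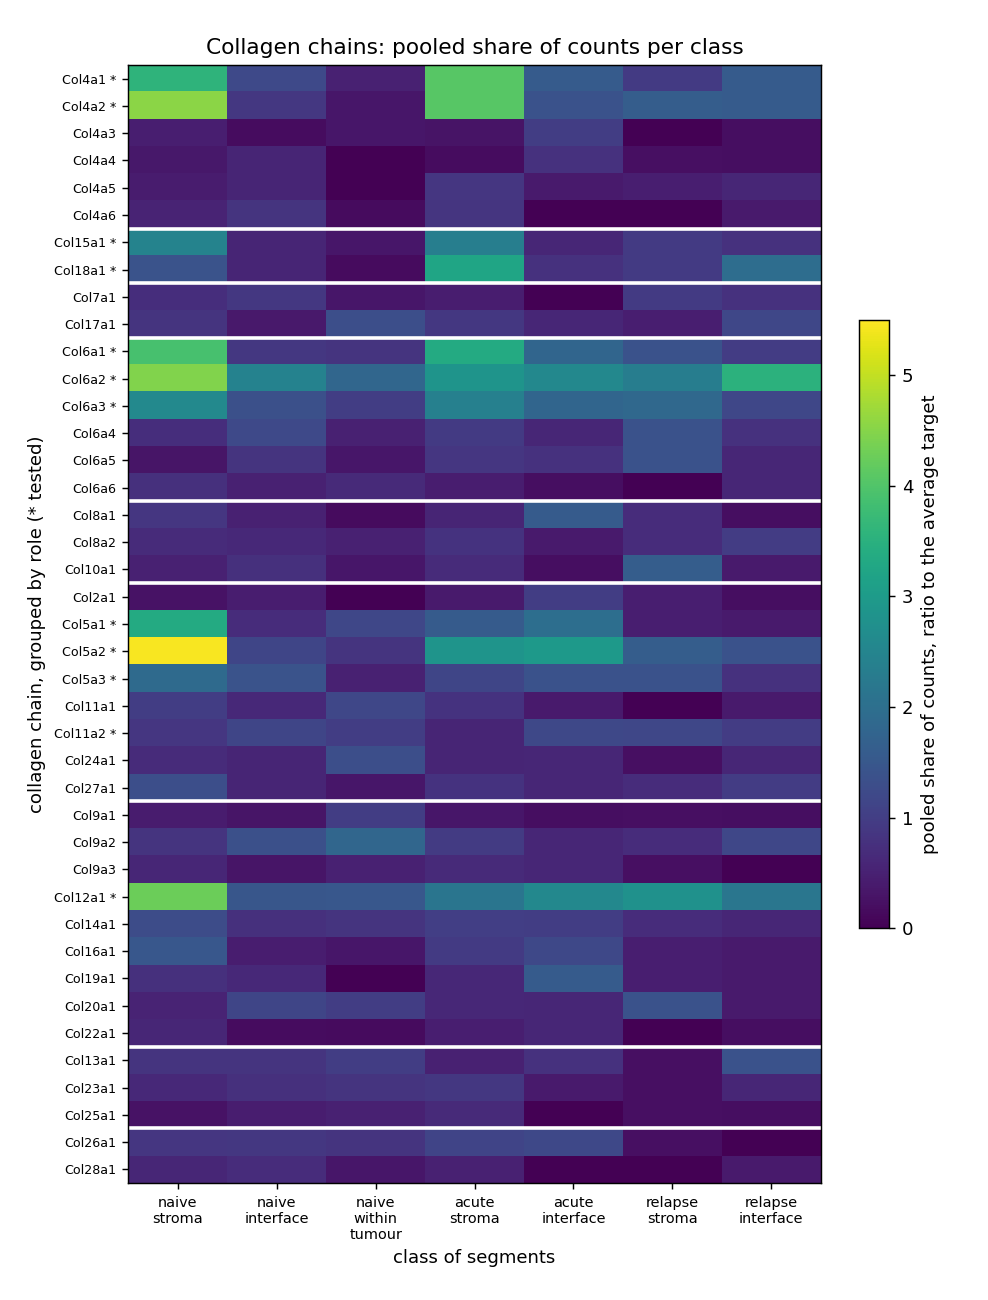
Pooled ratio to the average target (colour, linear scale) of the 41 chains (rows, grouped by role, tested chains starred) in the 7 classes (columns). Col4a2, Col5a2, Col6a1, Col6a2 and Col12a1 are each brightest in naive stroma, with Col5a2 at 5.45 there, while Col4a1 and Col18a1 are brightest in acute stroma (4.07 and 3.23).

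The chains as a whole took the largest share of counts in naive stroma, 0.295%, and the smallest within the naive tumour, 0.133%. The naive interface had 0.164%, acute stroma 0.252%, acute interface 0.193%, relapse stroma 0.160% and relapse interface 0.161%. The mean ratio of the 12 tested chains was 3.23 in naive stroma, 1.15 at the naive interface and 0.829 within the naive tumour. It was 2.55 in acute stroma, 1.72 at the acute interface, 1.45 in relapse stroma and 1.44 at the relapse interface. The 29 untested chains had mean ratios between 0.497 in relapse stroma and 0.694 in naive stroma. In these bulk segments fewer cells of a type and less RNA per cell cannot be told apart.

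The network-forming pair of the basement membrane had most of its naive counts in stroma. Col4a2 had 100 counts in naive stroma, a ratio of 4.54 (95% interval 3.69 to 5.52), and a count in 14 of 15 segments. At the naive interface it had 14 counts and a ratio of 0.896 (0.490 to 1.5), and within the naive tumour 2 counts and 0.332 (0.040 to 1.20). Normalised Col4a2 values were 3.74, 9.35 and 21.2 (lowest, median, highest) in naive stroma, 1.25, 2.99 and 15 at the naive interface and 1.25, 3.74 and 3.74 within the naive tumour. Stroma was the highest by median, and the ranges overlapped. The median value of a target with no count was 3.74 within the naive tumour and 1.87 in naive stroma and at the naive interface. The tumour median is therefore a floor value and cannot be ranked against the interface.

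Its partner Col4a1 forms the common type IV heterotrimer with Col4a2. Col4a1 had 79 counts in naive stroma, a ratio of 3.59 (2.84 to 4.47), 19 counts at the interface (1.22, 0.732 to 1.90) and 3 within the tumour (0.497, 0.103 to 1.45). Normalised values were 1.87, 3.74 and 18.7 in stroma, 1.25, 2.49 and 7.48 at the interface and 1.87, 3.74 and 3.74 within the tumour, so the ranges overlapped. The tumour median again equals the median value of a target with no count there. In relapse stroma 4 Col4a1 counts gave a ratio of 0.930 (0.253 to 2.38) and 7 Col4a2 counts one of 1.63 (0.655 to 3.35). At the relapse interface each chain had 8 counts and a ratio of 1.57 (0.679 to 3.10). Col4a1 made up 44.1% (exact binomial interval 36.7% to 51.7%) of the counts of the pair in naive stroma, 57.6% (39.2% to 74.5%) at the naive interface and 50% (43.8% to 56.2%) in acute stroma. These intervals overlap, and the shares were not tested. Col4a1 was above the limit in 15 segments and Col4a2 in 18, and 9 segments held both, which is 60% of the former and 50% of the latter.

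The other type IV chains replace the common pair in specialised membranes. Col4a3, Col4a4, Col4a5 and Col4a6 had between 29 and 55 counts over all segments, and Col4a3 exceeded the limit in none.

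The basement membrane zone chains had few counts outside naive and acute stroma, but total depth differed. It was 439652 counts in naive stroma, 85835 in relapse stroma and 101561 at the relapse interface. The mean ratio of these chains was 1.93 in naive stroma, 2.79 in acute stroma and 0.576 at the naive interface. It was 0.930 in relapse stroma from 8 counts and 1.38 at the relapse interface from 14 counts. Col15a1, the chain of type XV, which lies between the membrane and fibrils, had a ratio of 2.45 (1.84 to 3.20) in naive stroma, 0.576 at the naive interface and 0.332 within the naive tumour. Normalised Col15a1 values were 1.87, 4.99 and 17.5 in naive stroma and 0.748, 2.49 and 5.61 at the naive interface, with overlap. Col18a1, the chain of type XVIII and the source of endostatin, had ratios of 1.41 (0.956 to 2.0), 0.576 and 0.166 in the same order. In acute stroma Col18a1 had 104 counts and a ratio of 3.23 (2.64 to 3.91), but 71 of them came from 1 segment and the ratio was 1.24 without it.

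The anchoring chains were too scarce for the main test. Col17a1, a transmembrane chain of the hemidesmosome in basal keratinocytes, had 18 counts in naive stroma, a ratio of 0.817 (0.484 to 1.29). It had 6 counts at the naive interface (0.384, 0.141 to 0.836) and 8 within the naive tumour (1.33, 0.573 to 2.61). It had 29 counts in acute stroma, 2 in relapse stroma and 6 at the relapse interface (1.18, 0.433 to 2.57). Normalised Col17a1 values reached 11.2 in naive stroma, 3.74 at the naive interface and 9.35 within the tumour, so all classes overlapped. Col7a1, the chain of anchoring fibrils, had 54 counts in all and a count of 0 at the acute interface, where 3 counts, the most that a count of 0 allows, would be a ratio of 0.595. Col17a1 could be fitted only with no filter on low values. In that limma fit it differed from naive stroma by -0.29 ± 0.18 (SE, log2, adjusted p = 0.371) at the naive interface and by 0.23 ± 0.18 (adjusted p = 0.634) within the naive tumour. The difference between the naive tumour and its interface was 0.52 ± 0.19 (adjusted p = 0.0584), and the floor of the values differed by 0.52 as well. Relapse interface and relapse stroma differed by 0.20 ± 0.17 (limma, adjusted p = 0.995). From naive stroma, acute stroma differed by -0.07 ± 0.20 and relapse stroma by 0.12 ± 0.18 (limma, adjusted p = 0.934 and 0.71), and the interaction of location with slide was 0.50 ± 0.25 (adjusted p = 0.318).

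The 3 main type VI chains were all tested. Col6a1, Col6a2 and Col6a3 assemble in equal parts into the main type VI monomer. Col6a1 had 86 counts in naive stroma, a ratio of 3.90 (3.12 to 4.82), 14 at the interface (0.896, 0.490 to 1.5) and 5 within the tumour (0.829, 0.269 to 1.93). Normalised Col6a1 values were 3.74, 7.48 and 19.9 in naive stroma, 0.748, 3.74 and 11.2 at the interface and 1.87, 3.74 and 7.48 within the tumour. Stroma had the highest median and the ranges overlapped. The tumour median again equals the median value of a target with no count there.

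The ratio of Col6a2 was 4.45 (3.61 to 5.42) in naive stroma, 2.43 (1.72 to 3.34) at the naive interface, 1.82 (0.910 to 3.26) within the naive tumour and 3.54 (2.10 to 5.59) at the relapse interface. Col6a2 was above the limit in 11 of 15 naive stroma segments and 8 of 13 naive interface segments. Col6a1 made up 46.7% (39.4% to 54.2%) of the counts of the pair in naive stroma, 26.9% (15.6% to 41%) at the naive interface and 21.7% (7.46% to 43.7%) at the relapse interface. The first interval overlaps both others, and the shares were not tested. Col6a3 had ratios of 2.59, 1.34 and 0.995 in naive stroma, at the interface and within the tumour. All 3 chains were above the limit together in 9 segments, of which 5 were naive stroma, 1 naive interface and 3 acute stroma. Col6a4, Col6a5 and Col6a6, alternative partners of the first pair, had a mean ratio of 0.605 in naive stroma and 0.853 at the naive interface.

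Among the minor fibrillar chains, the type V chains and Col11a2 were tested. Col5a2 had a ratio of 5.45 (4.52 to 6.51) in naive stroma from 120 counts, with 1.15 (0.683 to 1.82) at the interface and 0.829 (0.269 to 1.93) within the tumour. Normalised Col5a2 values were 1.87, 7.48 and 44.9 in naive stroma and 1.25, 1.87 and 29.9 at the interface, so stroma was higher by median and the ranges overlapped. Col5a1 had ratios of 3.36 (2.64 to 4.22), 0.704 (0.351 to 1.26) and 1.16 (0.467 to 2.39) in the same order, and 2 counts in each relapse class. Col5a3 had ratios of 1.91, 1.41 and 0.497. Col11a2, a chain best known from cartilage, was near the average target in the naive classes (0.863, 1.15 and 0.995).

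Col12a1 was the only FACIT chain that could be tested. Its ratio was 4.27 (3.45 to 5.22) in naive stroma, 1.47 (0.933 to 2.21) at the interface and 1.49 (0.682 to 2.83) within the tumour. In relapse stroma it was 2.79 (1.44 to 4.87) and at the relapse interface 2.16 (1.08 to 3.87). The short-chain network chains Col8a1, Col8a2 and Col10a1 had mean ratios between 0.332 within the naive tumour and 1.01 in relapse stroma, the last from 13 counts.

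**Figure D2:**
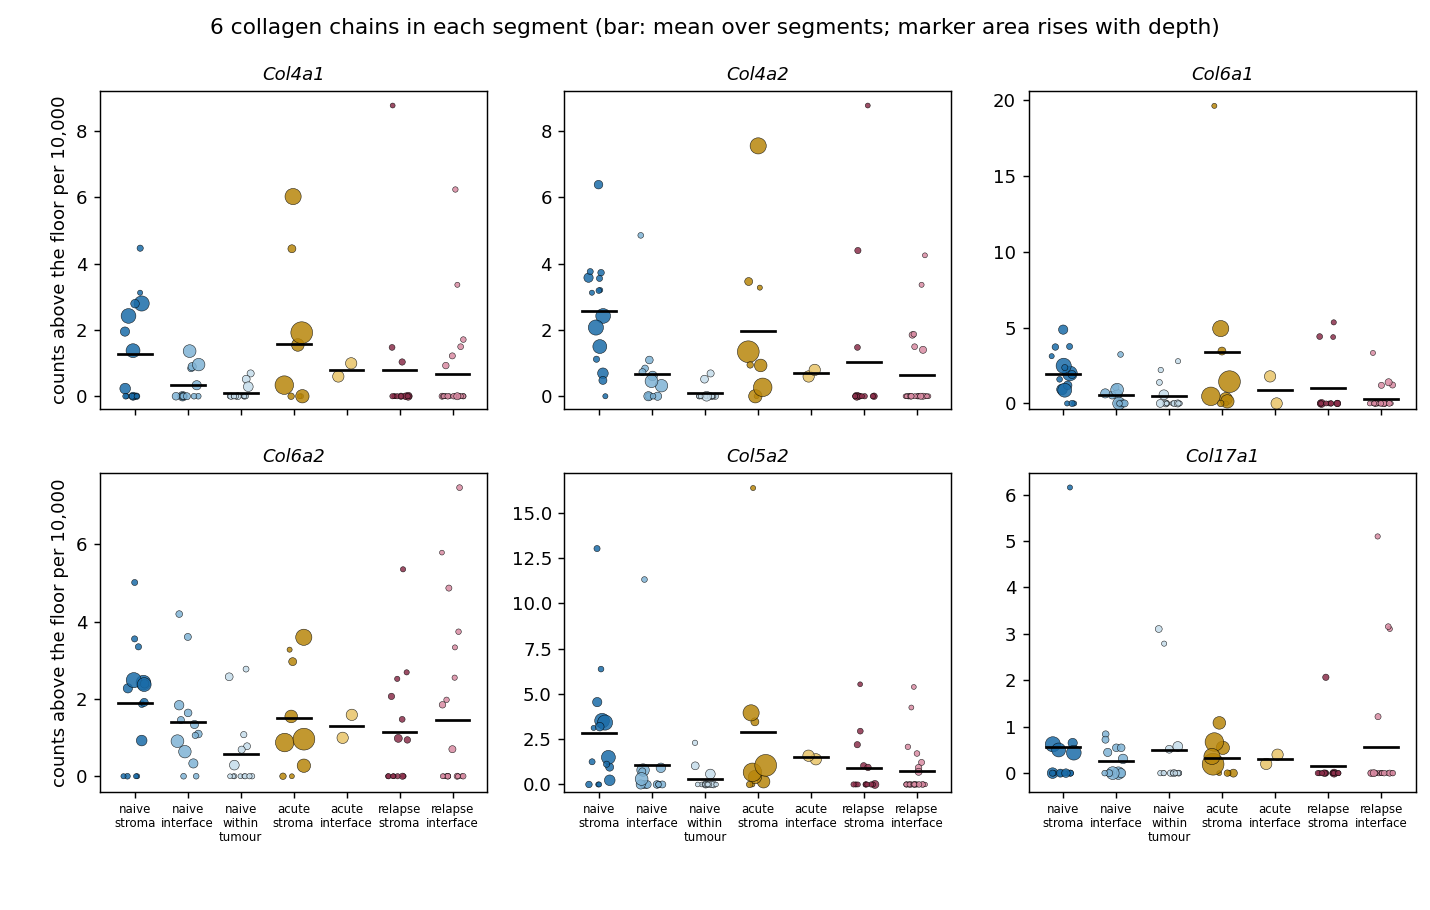
Counts above the floor per 10000 (vertical axis, linear) of 6 chains in each of the 89 segments, by class (horizontal axis), with marker area rising with depth and a bar at the mean over segments. Col4a2 has a count in 14 of 15 naive stroma segments and in 2 of 14 segments within the naive tumour, while Col17a1 shows no such order.

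The first comparison asked how the chains differed between the interface and the stroma before treatment. Of the 12 tested chains 7 were lower at the interface (limma on log2(value + 1), Benjamini-Hochberg over all targets tested, adjusted p under 0.05), against 11.1% of all 5087 tested targets called in either direction and 10.5% lower. By role these were 2 of 2 tested type IV chains, 1 of 2 multiplexins, 1 of 3 type VI chains, 2 of 4 minor fibrillar chains and the FACIT chain. Chains that pass a filter through their high values in 1 class are bound to differ there, so the count describes the tested chains and is no test of the group. Col4a2 was lower by a log2 difference of -1.32 ± 0.25 (SE, adjusted p = 2.97e-05), Col5a2 by -1.27 ± 0.27 (adjusted p = 0.00025) and Col6a1 by -1.16 ± 0.25 (adjusted p = 0.000426).

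The other chains that passed were Col5a1 (-1.10, adjusted p = 5.8e-05), Col12a1 (-1.01, adjusted p = 0.00404), Col4a1 (-0.78 ± 0.24, adjusted p = 0.0193) and Col15a1 (-0.78, adjusted p = 0.00242) in the same limma fit. Differences on the log2(value + 1) scale understate the change of low targets. The pooled ratio of Col4a2 was 5.07 times higher (2.88 to 9.60) in stroma. That ratio also weights segments by depth, scales to the total and leaves out the floor, so the scale alone does not account for the gap. All 12 differences were negative, with a median of -0.78 against -0.15 over all tested targets, but with counts rescaled to the same total Col5a3 and Col11a2 turned positive. Chains that did not pass were Col6a2 (-0.51), Col18a1 (-0.50), Col6a3 (-0.48), Col5a3 (-0.15) and Col11a2 (-0.05). The rescaling left 1 call, Col4a2 (-0.96, limma, adjusted p = 0.0396). Tissue pieces, taken from scan positions because the annotation names none, were left out in turn after the data were seen. Without the naive piece that held 8 of the 13 interface segments, 2 chains passed, Col12a1 and Col15a1. With tissue piece as a random block 6 chains passed and Col4a1 did not (-0.74, limma, adjusted p = 0.0578).

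Other targets of the collagen pathway were lower as well in this comparison. Of 14 tested enzymes and chaperones of collagen synthesis and processing 5 were lower, led by P4hb (-1.05), a subunit of prolyl 4-hydroxylase, Bmp1 (-0.89), the procollagen C-proteinase, Ppib (-0.87), a prolyl isomerase, and Pcolce (-0.61), the procollagen C-proteinase enhancer. Of 7 tested non-collagen basement membrane partners 4 were lower, Sparc (-2.34), Nid1 (-0.92), Hspg2 (-0.87) and Lamb2 (-0.70), of which nidogen and perlecan link laminin to type IV collagen. All 3 tested degradation targets were lower, Mmp2 (-1.95), Mmp14 (-1.19) and Ctsk (-1.12). Of 3 tested receptors 1 was lower, Ddr2 (-0.60), and the tested hemidesmosome partner Plec was lower (-0.65). With rescaled counts all of these kept their sign, but of the 14 calls over these lists only those of Sparc and Mmp2 still passed. The median over the basement membrane partners was -0.70 and over the synthesis targets -0.35.

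Markers of other cells moved with these calls. The 10 fibroblast markers, which include the left-out trio, together had 143 counts per 10000 in naive stroma (15 to 339 over segments), 21.4 at the naive interface (6.49 to 310) and 7.56 within the naive tumour (0 to 41.3), where Dpt was at 0. All 8 tested fibroblast markers were lower at the interface. The 9 macrophage markers had 60.3, 8.56 and 8.30 counts per 10000, with Cd163 at 0 within the tumour, the 7 mural markers 10.4, 3.01 and 3.24, and the 8 endothelial markers 4.71, 2.53 and 2.33, in the same order. The 12 keratinocyte markers had 25.5, 10.4 and 23.1, and 1 of 9 tested was lower at the interface, Krt5 (-1.17). The 6 skeletal muscle markers had 11, 3.05 and 1.66, with Tnnt3 at 0 within the tumour, and 1 of 6 tested was lower at the interface, Mylpf (-0.78). Each marker of these 6 lists had a count in naive stroma and at the naive interface. The 13 neutrophil markers had 6.28, 6.38 and 7.47 counts per 10000. The part of these cells in the collagen differences was not tested.

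The second comparison set the segments within the naive tumour against naive stroma. Of the 12 chains 5 were lower, against 3.66% of all tested targets called and 3.44% lower. These were Col4a2 (-1.28 ± 0.24, adjusted p = 5.12e-05), Col5a2 (-1.09, adjusted p = 0.00298), Col6a1 (-0.90 ± 0.25, adjusted p = 0.0133), Col5a1 (-0.73, adjusted p = 0.0205) and Col6a2 (-0.80, adjusted p = 0.0383) in the limma fit. Col4a1 (-0.62 ± 0.24, adjusted p = 0.149) and Col12a1 (-0.78, adjusted p = 0.0654) did not pass. Because of the filter, the count of 5 again describes the tested chains and is no test of the group. The median of the 12 was -0.67 against -0.01 over all targets, and 11 of 12 were negative. A target with no count takes the value of 1 count divided by the segment's factor, and this floor was itself higher within the tumour by 0.36 (log2). With rescaled counts Col11a2 turned negative too and 2 calls were left, Col4a2 and Col5a2. Without the first naive piece, 1 chain passed, Col4a2 (-1.20, limma, adjusted p = 0.00119). With tissue piece as a random block 4 chains passed and Col5a1 did not (-0.65, limma, adjusted p = 0.0742).

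Of the partner lists, Sparc (-2.66), P4hb (-0.76) and the degradation targets Mmp2 (-2.52), Mmp14 (-1.28) and Ctsk (-1.17) were lower within the tumour than in stroma. That is 1 of 7 basement membrane partners, 1 of 14 synthesis targets and 3 of 3 degradation targets. No tested receptor or hemidesmosome partner passed. With rescaled counts P4hb lost its call (-0.75, limma, adjusted p = 0.152), and the other 4 kept theirs. Of the tested markers, 7 of 8 fibroblast, 6 of 8 macrophage, 2 of 6 mural and 1 of 6 skeletal muscle ones were lower, and their part in the collagen values was not tested.

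Between the naive tumour and its interface no chain passed (0 of 12 in limma, 0 at an unadjusted p under 0.05, against 0.059% of all targets called). Col4a1 differed by 0.17 ± 0.25 (limma, adjusted p = 0.82) and Col6a1 by 0.25 ± 0.26 (adjusted p = 0.702). Of the signs, 10 of 12 differences were positive on the deposited scale and 11 of 12 were negative with rescaled counts, while the floor differed by 0.52.

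**Figure D3:**
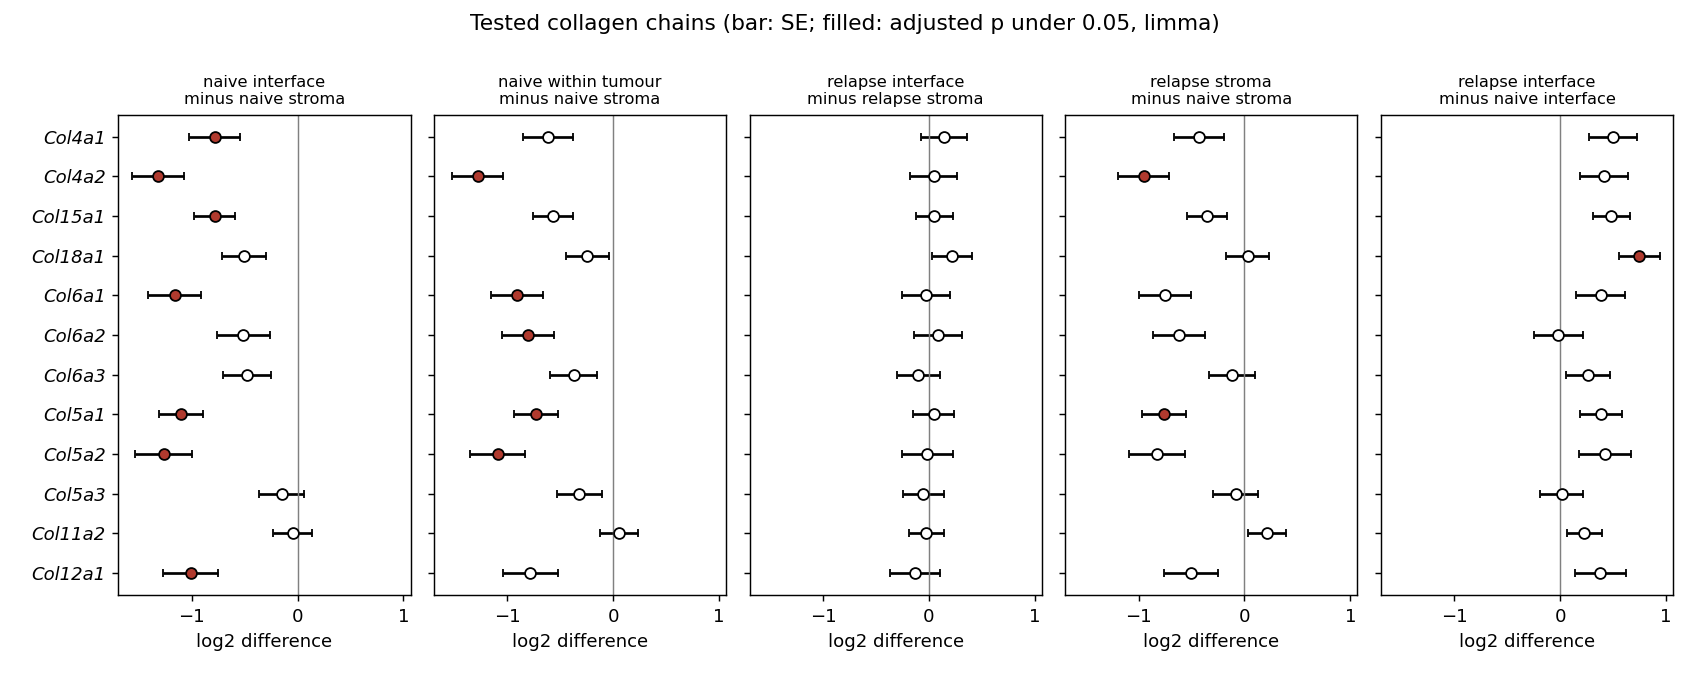
Log2 difference (horizontal axis) with its SE for the 12 tested chains (rows, ordered by role) in 5 comparisons, filled where the adjusted p was under 0.05. Filled points lie to the left in both naive comparisons, with Col4a2 at -1.32 and -1.28, and all points of the relapse interface against relapse stroma lie near 0.

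In relapse no chain passed between interface and stroma (0 of 12 in limma, 0 at an unadjusted p under 0.05, against 0% of all targets called, 131 of which had an unadjusted p under 0.05). Col4a1 differed by 0.15 ± 0.22, Col4a2 by 0.05 ± 0.22 and Col6a1 by -0.02 ± 0.23 (limma, adjusted p = 1 for each), with a median of 0.02 over the 12 chains and 0.04 over all targets. Normalised Col4a2 values were 1.87, 3.74 and 18.7 in relapse stroma and 3.74, 3.74 and 7.48 at the relapse interface. Normalised Col6a1 values were 1.87, 3.74 and 15, and 1.87, 3.74 and 7.48. The medians equal the median value of a target with no count in these classes, 3.74, and Col4a2 had a count in 3 of 14 stroma and 6 of 22 interface segments. Depth was low: the median was 3964 counts in relapse stroma and 3571 at the interface, where 11 of 22 segments had no chain above the limit. No partner target passed in relapse.

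The difference between the slides in the step from stroma to interface was tested by an interaction (relapse minus naive). It was positive for 5 chains, against 4.19% of all targets called and 4.07% positive: Col4a2 (1.37 ± 0.33, adjusted p = 0.00598), Col5a1 (1.15, adjusted p = 0.00809), Col5a2 (1.25, adjusted p = 0.0258), Col6a1 (1.13 ± 0.34, adjusted p = 0.0323) and Col15a1 (0.84, adjusted p = 0.0431), in limma. Col4a1 was at 0.93 ± 0.33 (adjusted p = 0.0791). The filter limits this count of calls as it does those against naive stroma, so it is no test of the group. All 12 values were positive on the deposited scale (median 0.86, all targets 0.19), and 9 of 12 with rescaled counts, where Col5a3, Col6a3 and Col11a2 turned and no chain passed. The floor value itself had an interaction of 0.25. With tissue piece as a random block 2 chains passed, Col4a2 and Col5a1, and 0 passed without naive piece 5, relapse piece 1 or relapse piece 3. With plate as a covariate the same 5 chains passed with unchanged estimates (Col4a2 1.37, limma, adjusted p = 0.00623). This outcome was fixed by the design and is no check on plate. Neither of these 2 slides spans both plates, so a plate term cancels in the interaction. Stage, slide and the differing scan names (UP HRass, DMBA Relapse) cannot be told apart here.

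Among the partners the interaction was positive for Sparc (2.20), Hspg2 (1.0) and Nid1 (0.88), 3 of 7 basement membrane partners, for P4hb (1.27), 1 of 14 synthesis targets, for Mmp2 (2.03), 1 of 3 degradation targets, and for Plec (0.89); none kept its call with rescaled counts, and none turned negative. It was positive for 7 of 8 tested fibroblast markers. The fibroblast markers together had 46 counts per 10000 in relapse stroma (2.69 to 421 over segments) and 32.1 at the relapse interface (3.59 to 143). Their part in the collagen values was not tested.

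Relapse stroma was compared with naive stroma. Of the 12 chains 2 were lower, against 1.4% of all targets called and 1.26% lower: Col4a2 (-0.95 ± 0.24, adjusted p = 0.0129) and Col5a1 (-0.76, adjusted p = 0.0293) in limma. Col6a1 (-0.75 ± 0.25, adjusted p = 0.123) and Col4a1 (-0.43 ± 0.24, adjusted p = 0.509) did not pass, and the median was -0.47 against 0.02 over all targets. Here too the filter makes the count of calls a description of the tested chains only. Over all targets 7 of 71 calls were higher, and 23 of 93 with rescaled counts. With plate as a covariate, which the acute segments alone make possible, no chain passed. Leaving out pieces gave 0 to 4 calls, with 0 without naive piece 1, naive piece 3, relapse piece 1 or relapse piece 3, 1 without relapse piece 4, and 4 without relapse piece 2. Sparc (-1.89), Mmp2 (-2.01) and Mmp14 (-1.02) were lower among the partners. Of the keratinocyte markers 4 of 9 tested were higher and of the fibroblast markers 6 of 8 lower.

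At the relapse interface 1 chain was higher than at the naive interface, Col18a1 (0.75 ± 0.19, limma, adjusted p = 0.00845), against 9.77% of all targets called and 9.36% higher. The pooled ratio of Col18a1 was 1.97 (0.943 to 3.61) from 10 counts at the relapse interface and 0.576 (0.263 to 1.09) from 9 counts at the naive interface. Normalised values were 1.87, 3.74 and 15, and 0.748, 1.87 and 7.48, with overlap. The floor rose by 0.74 (log2) between these classes, the median value of a target with no count being 3.74 against 1.87. Col4a1 was at 0.50 ± 0.22 (adjusted p = 0.119) and Col6a1 at 0.38 ± 0.23 (adjusted p = 0.249) in limma.

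The count of members called was 0 with rescaled counts, with depth or plate as a covariate and with tissue piece as a random block, and 23 of 41 with no filter, where Col17a1 (0.62 ± 0.17, limma, adjusted p = 0.0021) was among them. In that fit with no filter 11499 of all 19962 targets were called, 11432 of them higher. With rescaled counts 10 of the 12 differences were negative, against 1 of 12 on the deposited scale, and over all targets the share of calls that were higher was 17.5% against 95.8%. Partner calls on the deposited scale were Nid2 (0.61), Nid1 (0.59), Hspg2 (0.56) and Lamb2 (0.53), 4 of 7 basement membrane partners, with P4hb (0.73) and Ddr2 (0.55), but with rescaled counts Nid1, Hspg2 and Lamb2 turned negative and none of these passed. Keratinocyte markers together had 131 counts per 10000 at the relapse interface and 10.4 at the naive interface, and 6 of 9 tested were higher. Their part was not tested.

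Between acute and naive stroma no chain passed (0 of 12 in limma, 2 at an unadjusted p under 0.05, against 0.0197% of all targets called). Col4a1 differed by 0.03 ± 0.27 (limma, adjusted p = 0.977), Col4a2 by -0.55 ± 0.27 (adjusted p = 0.426) and Col6a1 by -0.27 ± 0.28 (adjusted p = 0.725). The pooled ratio in acute stroma was 4.07 for Col4a1 and 4.07 for Col4a2 (3.40 to 4.83 for each), beside 3.59 and 4.54 in naive stroma. It was 1.58 for Col5a1, 2.86 for Col5a2 and 2.14 for Col12a1, beside 3.36, 5.45 and 4.27 in naive stroma. Normalised Col4a2 values were 0.623, 5.24 and 45.4 in acute stroma.

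The acute stroma values rested on few segments. In order of depth, the 9 segments had 0, 0, 0, 9, 10, 0, 67, 5 and 40 counts of Col4a1, and 0, 1, 1, 7, 6, 0, 84, 4 and 28 of Col4a2. Col18a1 had 0, 1, 1, 1, 5, 0, 71, 4 and 21 counts, and Col6a1 had 0, 6, 0, 7, 2, 1, 55, 7 and 30. By raw count the segment with 111276 counts in all was the highest for each of these chains, and the deepest, with 208675, came next. Raw counts depend on depth, so this is no ranking by share. The segment with 3054 counts in all held 6 of Col6a1, and that with 20238 held 9 of Col4a1. Without the leading segment the ratios were 2.40 for Col4a1, 1.76 for Col4a2, 1.99 for Col6a1, 1.80 for Col5a2 and 1.24 for Col18a1. The count of calls without that segment was again 0. Without acute piece 1, which held it and 3 more segments, 4 chains were lower than in naive stroma, Col4a2 (-1.28), Col5a1 (-0.92), Col5a2 (-1.29) and Col6a1 (-1.18), with adjusted p-values (limma) from 0.00878 to 0.0428. Over all targets the calls went from 1 to 162, of which 33 were higher. The 3 other segments of that piece were on plate G, as was all of naive stroma. Leaving the piece out therefore also changed the balance of plates, and the 2 cannot be told apart. With all pieces kept, no chain passed in limma with plate as a covariate or on plate G alone. The 2 acute interface segments had 9 and 0 counts of Col6a1 and 4 and 3 of Col4a2, and entered no comparison.

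**Figure D4:**
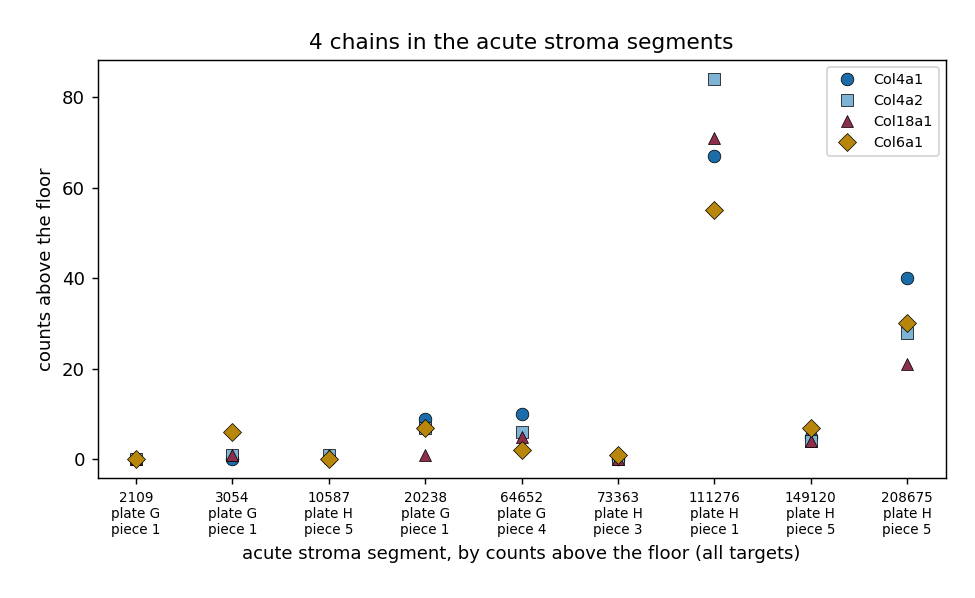
Counts above the floor (vertical axis, linear) of Col4a1, Col4a2, Col18a1 and Col6a1 in the 9 acute stroma segments, ordered by depth (horizontal axis, with plate and tissue piece by scan position). The seventh segment, on plate H in piece 1, holds 84 of 131 Col4a2 counts and 71 of 104 Col18a1 counts, while a deeper neighbour holds 4 of each.

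Detection was also read against depth. The median number of chains above the limit per segment was 7 of 41 in naive stroma (0 to 15), 5 at the naive interface (0 to 12) and 1 within the naive tumour (0 to 13). It was 2 in acute stroma (0 to 12), 4 at the acute interface, 1.5 in relapse stroma (0 to 7) and 0.5 at the relapse interface (0 to 7). Over all 19962 targets the medians were 1646 in naive stroma, 2971 at the naive interface and 681 within the naive tumour. They were 858 in acute stroma, 1311.5 at the acute interface, 589 in relapse stroma and 528.5 at the relapse interface. The low chain numbers within the tumour and in relapse thus came with low detection over the whole panel. Median depths were 10737, 18307 and 4439 in the naive classes, and the interface, deeper by median than the stroma, had fewer chains above the limit. In acute stroma the segments with 64652, 73363 and 149120 counts had 2, 0 and 0 chains above the limit.

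**Figure D5:**
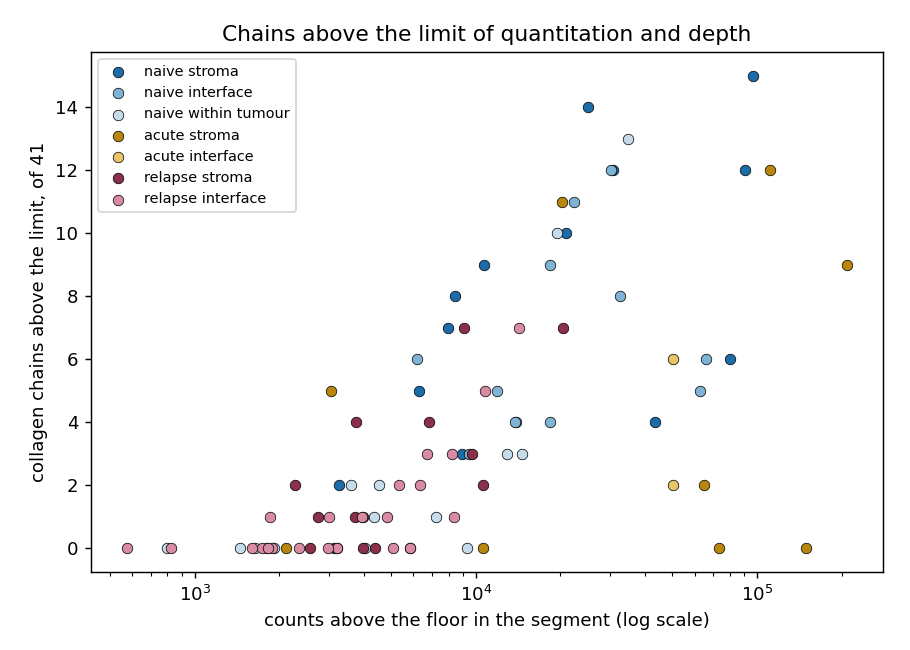
Number of chains above the limit of quantitation, of 41 (vertical axis), against the counts above the floor of the segment (horizontal axis, log scale), coloured by class. Naive stroma reaches 15 chains, relapse segments reach 7, and the acute stroma segments with 73363 and 149120 counts show 0.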

How the data were processed

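Per the file headers, the authors deposited a normalised signal for every target in every segment. They also deposited an upper-quartile factor, a ratio, for each segment. The deposited signal is the tag count over that factor: multiplied back, 99.986% of values were whole within 1e-06, and 69.1% of target values were at the floor of 1 count. Nuclei and scan positions are deposited scores used as given in the authors' annotation. The submitters' processing notes name Seurat and mm10; other steps are not given in the sources used here.

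Classes came from the authors' annotation, since the sample labels put all 89 segments in 1 group. Targets above the limit of quantitation in at least 10% of segments (5087 of 19962) were fitted with limma 3.58.1 (R 4.3.3, lmFit and eBayes with trend) on log2(value + 1), with 1 mean per class, two-sided, at an adjusted p of 0.05. Python 3.11.15 with pandas 2.3.3, NumPy 2.4.6, SciPy 1.17.1 and Matplotlib 3.10.9 did the rest. The fit was tested on simulated data. Rescaling means counts divided by the segment total. Tissue pieces are single-linkage groups of scan positions at 7000 scan units, a distance chosen after the positions were seen. The intervals treat each count as independent and cover counting error only, not the spread between segments. Every tested chain, every chain called, Col4a1, Col6a1 and Col17a1 in each comparison, and at most 4 called targets per partner list were named. The members, the lists and the filter were chosen with earlier results of these data known.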

Additional observations from a re-analysis of the deposited data

Results flagged for a closer look

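In acute stroma, with 9 segments, the highest normalised value stood far from the next for 5 chains. It was 45.4 for Col4a2 (next 15), 38.5 for Col18a1 (next 7.48), 36.3 for Col4a1 (next 18.7), 22.4 for Col12a1 (next 11.8) and 15 for Col15a1 (next 8.06). The Col12a1 value came from a shallow segment, with 5 counts of Col12a1 and 3054 counts in all. Those of the other chains came from the segment with 111276 counts, which held 21 of Col12a1. Chance marks about 1 in 20 groups of normally distributed values with equal spread. These segments had depths from 2109 to 208675 counts, so that rate need not hold here. Chains measured in the same segments are also not separate groups. The difference between interface and stroma differed between the relapse and naive slides for Col4a2 (1.37), Col5a2 (1.25), Col5a1 (1.15), Col6a1 (1.13) and Col15a1 (0.84, log2, limma). Slide and stage cannot be told apart in that test, and only a plate effect equal in both locations cancels in it.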

How the results depend on the processing

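Calls among the 12 tested chains depended on the scale. With counts rescaled to the same total there was 1 call for the naive interface against stroma, 2 within the naive tumour against stroma, 1 for relapse against naive stroma, 0 for the relapse against the naive interface and 0 for the interaction. With no filter the counts, over 41 chains, were 8 for the naive interface against stroma (678 over all 19962 targets), 3 within the tumour against stroma (139), 1 within the tumour against the interface (1473), 1 for relapse against naive stroma (65), 23 for the interfaces (11499) and 2 for the interaction (117). A pseudocount of 0.5 gave 2 calls between the interfaces. With depth as a covariate the interfaces had 0 calls. With tissue piece as a random block (correlation within a piece 0.0442) there were 6 calls for the naive interface against stroma, 4 within the tumour against stroma, 1 for the stroma stages, 0 for the interfaces and 2 for the interaction, and with plate as a covariate 0 for the stroma stages and 0 for the interfaces. Leaving out 1 tissue piece at a time gave 2 to 8 calls for the naive interface against stroma, 1 to 4 within the tumour against stroma, 0 to 0 within the tumour against the interface, 0 to 0 in relapse, 0 to 4 for acute against naive stroma, 0 to 4 for relapse against naive stroma, 0 to 3 for the interfaces and 0 to 5 for the interaction. No called chain changed sign under these settings. Over all targets, rescaling took the naive interface calls from 563 to 43 and the interface stage calls from 497 (476 higher) to 137 (24 higher), and moved the median of all targets from 0.22 to -0.19 in the latter. The cause was not tested. The count-based test planned as an alternative was not run, because the step of the values differs between segments. No paired analysis was possible because the labels give no shared replicate numbers, so tissue pieces, some of which span locations, entered only as the random block above. Low depth in relapse limits what those classes can show.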
